A study of Mus musculus with 6 samples.

Results

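Heat shock proteins, J proteins and chaperonins are the cell's machinery for folding proteins and for keeping them from clumping. They were examined here as a group of 80 genes out of 18193 named genes on the array. The members are the genes whose single annotation symbol begins with Hspa, Hspb, Dnaja, Dnajb, Dnajc (each followed by a digit), Hsp90 or Cct2 to Cct8, together with Hspd1, Hspe1, Hsph1 and Tcp1. A gene with several probe sets was represented by the one with the highest mean log2 value over all 6 arrays, and the 80 genes had 196 probe sets in all. The choice of probe set used no difference between groups, while the members were chosen with earlier results of these data known. By family there were 11 HSP70 genes, 3 HSP110 genes, 2 HSP90 genes, 8 small heat shock proteins, the 2 genes of the mitochondrial chaperonin, 10 genes of the cytosolic chaperonin TRiC or close relatives, and 44 J proteins (4 of class A, 13 of class B and 27 of class C). Hsp90ab1 was not analysed here.

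The samples were CD71+Ter119+ erythroid progenitors sorted from the bone marrow of female mice aged 6 weeks, with 1 Affymetrix array for each of 6 mice. The 3 control mice were Bcl11a +/+. The 3 knockout mice were Bcl11a fl/fl EpoR-Cre+, so that Cre, driven by the erythropoietin receptor gene, was named for the knockouts only, and an effect of Cre or of that allele cannot be told apart from one of Bcl11a. Bcl11a encodes a repressor of embryonic globin genes, and the comparison asks which transcripts differ once it is inactivated in red cell precursors. The Bcl11a probe set read 1475, 1553 and 1449.7 in control mice 1, 2 and 3 and 1286, 1419 and 1190.1 in knockout mice 1, 2 and 3, but no source used here says whether its probes lie in the deleted part, so these values do not check the genotype.

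HSP70 proteins bind exposed stretches of unfolded chains in cycles of ATP hydrolysis. J proteins bring clients to HSP70 and trigger the hydrolysis, while HSP110 proteins and other exchange factors release the client again. HSP90 acts later, on kinases and receptors near their folded state, and the chaperonins enclose whole chains in a barrel. Red cell precursors make globin in large excess over other proteins; in them HSP70 is known for shielding the transcription factor GATA1 from caspase cleavage, and HSP90 for holding the heme-regulated kinase that slows translation when heme is short.

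Each array gave 45037 probe set intensities on a linear scale, with array medians between 67.5 and 70.9. Of the 80 members, 12 had a mean intensity below 68.6, the median of all probe sets: Hspa1l, Hspa12a, Hspa12b, Hspb2, Hspb3, Hspb9, Cct6b, Dnajb7, Dnajb13, Dnajc5b, Dnajc5g and Dnajc22. Their values ran from 1.28 to 87.9, and without detection calls such levels cannot be told from background. The sorted cells carried their erythroid markers: Slc4a1, the band 3 anion exchanger, read 22317, 18743 and 21872 in the controls against 23335, 24366 and 25014 in the knockouts. Markers of other cells were present as well, and the neutrophil genes Ngp, S100a8 and S100a9 read higher than Slc4a1 in every mouse. S100a8 read 40360, 39661 and 39778 in the controls against 38113, 38680 and 39378 in the knockouts. The highest intensity on an array was between 38113 and 40360. The intensities of 8 neutrophil genes summed to 195962 to 198079 in the controls against 181203 to 189472 in the knockouts, those of 6 pre-B cell genes to 10942 to 13283 in the controls against 7813 to 10027 in the knockouts, those of 4 basophil and mast cell genes to 21794 to 22561 in the controls against 18423 to 22184 in the knockouts, and those of 6 macrophage genes to 4630.2 to 5516 in the controls against 4601 to 5528 in the knockouts. The sums for 3 megakaryocyte genes were 1489 to 1886 in the controls against 1322 to 2269.9 in the knockouts, and those for 2 T cell genes 330.3 to 484 in the controls against 443 to 616 in the knockouts. In such bulk samples, fewer cells of a type and less RNA per cell cannot be told apart.

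Of the 80 members, 59 (73.8%) had a log2 change (knockout minus control) within 0.25 of 0, close to the 70.8% of all genes, and the largest change was that of a J protein, Dnajb4. No member passed the test (limma, adjusted p threshold of 0.05 over all 45037 probe sets), while 0.209% of all genes passed higher in the knockout and 0.0055% lower. At an unadjusted p threshold of 0.05, 11 members (13.8%) were higher and 2 (2.5%) lower, against 8.18% and 4.53% of all genes. The groups were apart, with no overlap of their values, in 22 members: in 17 (21.2%) the lowest knockout exceeded the highest control, against 12.3% of all genes, and in 5 (6.25%) the highest knockout was under the lowest control, against 9.23%. After quantile normalization these counts were 15, against 10.6% of all genes, and 12, against 12.6%. With the probe sets of each gene averaged they were 14, against 11.2%, and 3, against 9.6%. The median log2 change was 0.0164 over the members and -0.0012 over all genes. Changes are on the scale of log2(intensity + 16), which understates those of dim probe sets.

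With the variances moderated along an intensity trend and robustly, 5 members passed, all of them J proteins and all higher in the knockout: Dnajb4, Dnajb2, Dnajc10, Dnajc16 and Dnaja4. That setting called 3.61% of all genes higher and 0.605% lower. With a pseudocount of 64 in place of 16, Dnajb4, Dnajc16 and Dnajc10 passed (1.45% of all genes higher, 0.115% lower), and the same 3 passed among the brighter 50% of probe sets (3.22% higher, 0.471% lower). No other setting tried called a member.

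**Figure D1:**
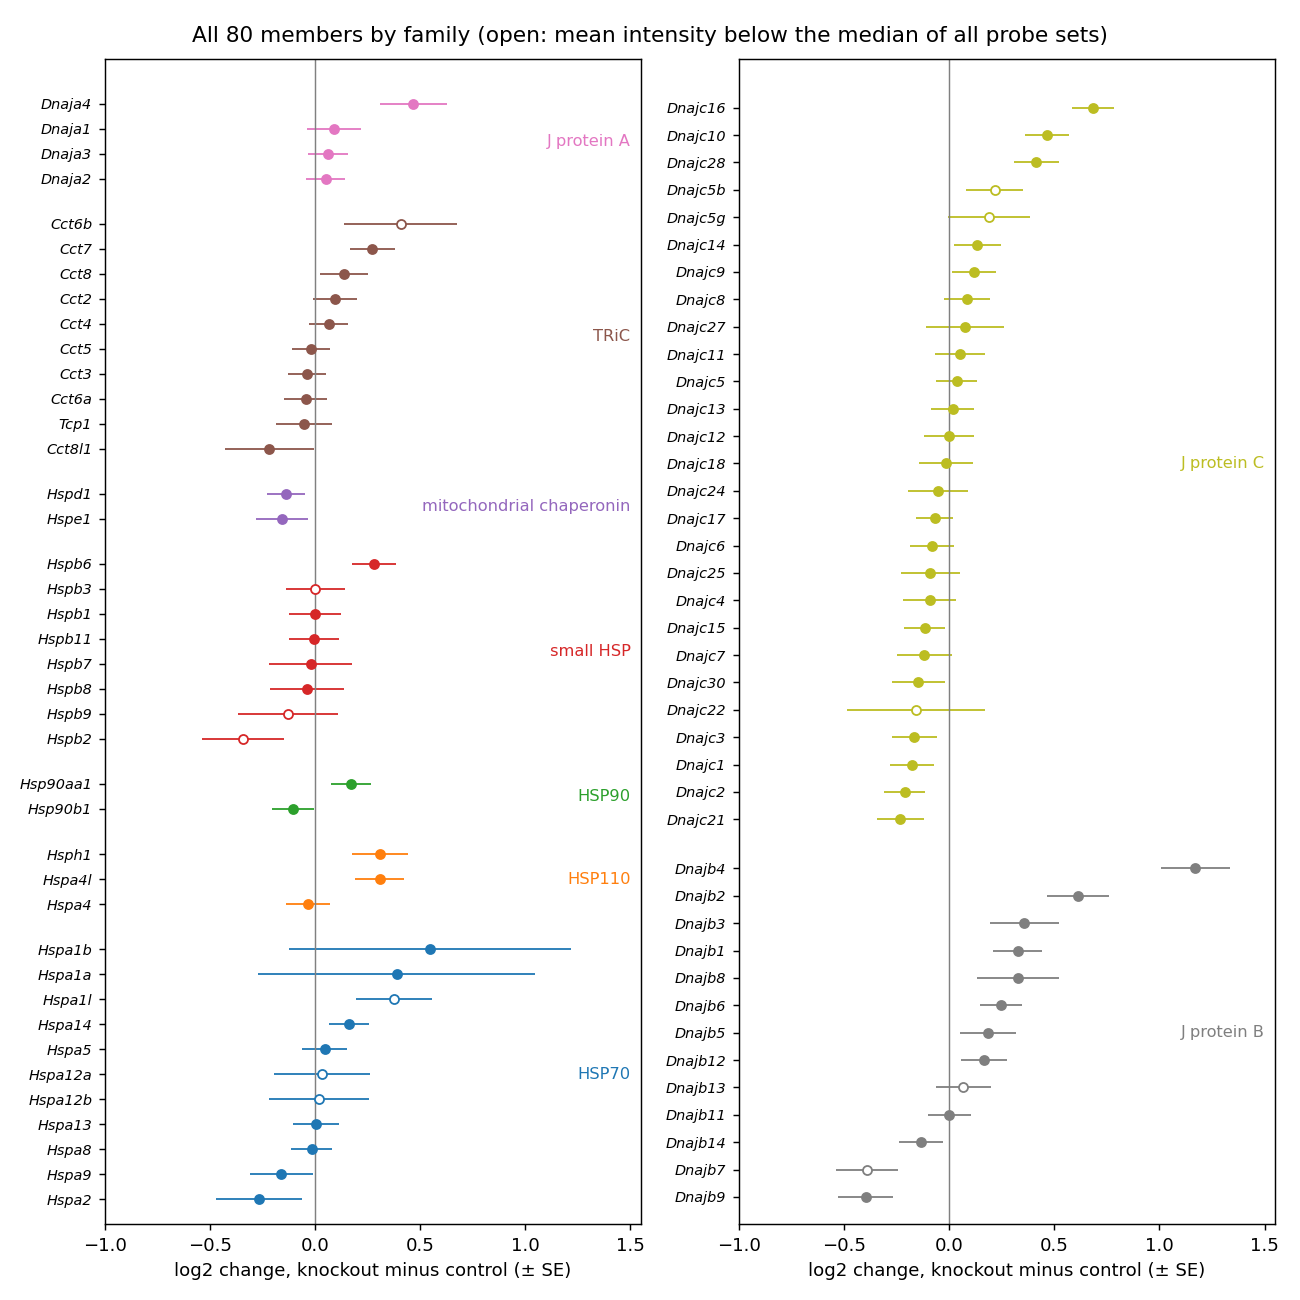
Log2 change (knockout minus control) with its standard error for each of the 80 members, grouped by family and ordered by size, with open circles for the 12 dim members. Dnajb4 stands farthest to the right at 1.17, most points lie near 0, and the standard errors of Hspa1a and Hspa1b are the widest.

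Dnajb4, a cytosolic class B J protein also known as HLJ1, had the largest difference of any member. It read 2562, 1882 and 2399.7 in control mice 1, 2 and 3 and 4405, 5227 and 5807 in knockout mice 1, 2 and 3. The lowest knockout value lay well above the highest control value. Values of other genes follow in the same order, mice 1, 2 and 3 of the control group against mice 1, 2 and 3 of the knockout group. The means were 2281 ± 355 and 5147 ± 705 (SD, n = 3), a ratio of 2.26, and the difference on the log2 scale was 1.17 ± 0.17 (SE) with an adjusted p of 0.0882. This p was 0.000302 with the intensity trend, and 0.000302 to 0.431 over the 14 alternatives. A second probe set read 1097, 779.9 and 1014 against 2058, 2449.8 and 2612, a log2 change of 1.29 ± 0.17 (adjusted p = 0.0736). The third, between 17.3 and 36.1 on all arrays, had a change of -0.23, and with the mean of all 3 probe sets the change was 0.75.

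Dnajb2, the J protein HSJ1 that carries ubiquitinated clients towards the proteasome, read 3223, 2334 and 3101 in the controls against 4214, 4327 and 4578 in the knockouts. All 3 knockouts lay above all 3 controls, among which mouse 2 was the lowest. The log2 change was 0.61 ± 0.15 (adjusted p = 0.218, 0.00599 with the trend and 0.00599 to 0.432 over the alternatives). Dnaja4, a class A J protein of the cytosol, read 1515, 1025 and 1270.1 against 1739.7, 1647 and 1839.6, again with the groups apart and control mouse 2 lowest. Its log2 change was 0.47 ± 0.16 (adjusted p = 0.326, 0.0493 with the trend and 0.0493 to 0.532 over the alternatives). The other 2 probe sets of Dnaja4 had larger changes, 0.76 and 0.62, also with the groups apart.

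The remaining pair of the 5 belongs to the endoplasmic reticulum (ER), the compartment where secreted and membrane proteins fold. Dnajc10, or ERdj5, a reductase that opens wrongly paired disulfide bonds, read 1306, 1257 and 1243 in the controls against 1683, 1675 and 1927 in the knockouts. The controls lay close together and below every knockout. Its log2 change was 0.47 ± 0.10 (adjusted p = 0.194, 0.00583 with the trend and 0.00583 to 0.431 over the alternatives), and its other 2 probe sets had changes of 0.35 and 0.31 with the groups apart. Dnajc16, a J protein of the ER membrane, had a low intensity, 122, 125 and 129 against 196, 211 and 228. The controls lay within a narrow range, and its log2 change was 0.68 ± 0.10 (adjusted p = 0.0972, 0.00892 with the trend and 0.00892 to 0.431 over the alternatives). A second probe set of Dnajc16 had a change of 0.43, also with the groups apart.

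**Figure D2:**
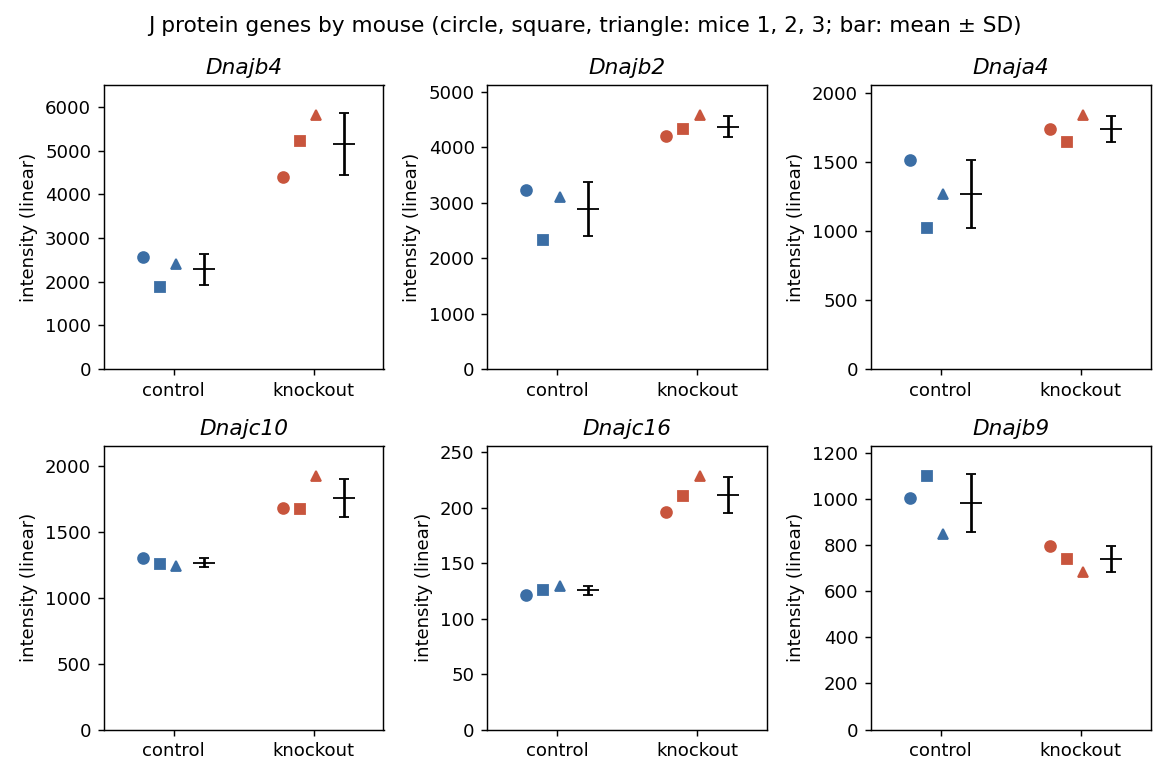
Linear intensity of 6 J protein genes in each mouse, with control in blue, knockout in red and the mean ± SD beside each group. The knockouts lie above all controls for Dnajb4, Dnajb2, Dnaja4, Dnajc10 and Dnajc16, and below them for Dnajb9.

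Late erythroid markers lay on the same side as these J proteins. All 7 measured genes of that list were above 0, 6 with the groups apart, against 12.3% of all genes. Add2, a membrane skeleton gene, was the 1 that passed the test, against 0.209% of all genes higher. With the intensity trend 5 passed, against 3.61%. The median log2 change was 0.89. Their summed intensities were 49737, 39407 and 46960 in control mice 1, 2 and 3 and 62273, 60490 and 62823 in the knockouts. Control mouse 2 was thus the lowest control in this sum as in Dnajb4, Dnajb2 and Dnaja4. Of the other members with the groups apart and knockouts higher, it was lowest in Dnajb1, Dnajb3, Dnajb6, Dnajb8, Cct7, Hspa4l and Hspb6. It was not the lowest control in Dnajc10, Dnajc14, Dnajc16, Dnajc28, Hsph1, Hspa14 or Hsp90aa1. Whether this order is more frequent than chance would give was not tested. Of 7 erythroid markers, 6 were above 0, with a median of 0.62 and sums of 69676 to 85192 in the controls against 89788 to 98574 in the knockouts. The 5 progenitor markers were all below 0, with a median of -0.36 and sums of 9800.5 to 9902 in the controls against 6435 to 8168 in the knockouts. The part of cell stage in the J protein differences was not tested.

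Among the other class B J proteins, Dnajb6 and Dnajb1 also had their groups apart. Dnajb6, which keeps aggregation-prone chains soluble, read 5543, 5217 and 5530.4 against 6849, 6137 and 6353, a log2 change of 0.25 ± 0.10 (adjusted p = 0.388), which was 0.12 after quantile normalization (adjusted p = 0.648, 0.0592 to 0.648 over the alternatives). The groups were apart in each of its other 3 probe sets too, with changes of 0.50, 0.44 and 0.29. Dnajb1, or HSP40, the main heat-inducible J protein of the cytosol, read 2529, 2032 and 2196 against 2728, 2776 and 2949.5, a change of 0.33 ± 0.12 (adjusted p = 0.349). In its second probe set the groups overlapped, with a change of 0.12. In class B as a whole the groups were apart with knockouts higher in 6 of 13 members (46.2%), against 12.3% of all genes. Those not yet named, Dnajb3 (0.36) and Dnajb8 (0.33), had low intensities, between 70.0 and 346.

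The other class A members, the HSP70 partners Dnaja1 and Dnaja2 of the cytosol and Dnaja3 of the mitochondrion, had log2 changes of 0.09, 0.05 and 0.06 with overlapping groups. For Dnaja2 the 95% interval ran from -0.17 to 0.27. In class C, Dnajc28 read 178, 175 and 154 against 247, 216 and 228, a change of 0.41 ± 0.11 with the groups apart (adjusted p = 0.233). The 24 class C members other than Dnajc10, Dnajc16 and Dnajc28 had changes between -0.23 and 0.22, 10 above 0 and 14 below, and of those above 0 only Dnajc14 (0.13) had its groups apart. They include Dnajc5, the cysteine string protein of vesicles (0.04), Dnajc7, which links HSP70 and HSP90 (-0.12), Dnajc8, of splicing (0.09), and Dnajc9, a histone chaperone (0.12).

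At the lower end of class C were a pair of J proteins tied to the ribosome. Dnajc21, which acts in the maturation of the large ribosomal subunit, read 1213, 1314 and 1247 against 1083, 1171 and 959.7, a log2 change of -0.23 ± 0.11 (adjusted p = 0.465). Dnajc2, which sits at the exit of the ribosome and receives new chains, read 1587, 1766 and 1623 against 1480.4, 1416 and 1388, a change of -0.21 ± 0.10 (adjusted p = 0.443). In both genes the knockouts were all lower than the controls. The direction did not hold in every probe set of Dnajc21, 3 of whose other 4 were above 0, all at intensities below 72. The remaining one, at 485, 513 and 559 against 505, 505 and 442, had a change of -0.10 with overlapping groups. The mean of all 5 gave 0.10. For Dnajc2 a second probe set, at 1571, 1537 and 1532 against 1425, 1297 and 1232, had a change of -0.23 with the groups apart. The other 2 of Dnajc2 were dimmer, with changes of 0.05 and -0.07 and overlapping groups, and the mean of all 4 gave -0.12. Dnajc17 (-0.07), a nuclear J protein, also had its knockouts below its controls, with the smallest difference of the 5 such members. Its other 2 probe sets were above 0, at low intensities of 48.8 to 109 and of 1 to 26.6.

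The inducible HSP70 genes varied more between mice of a group than between the groups. Hspa1b read 345, 742 and 1359 in control mice 1, 2 and 3 and 569, 788 and 2475 in knockout mice 1, 2 and 3. The groups overlapped, with mouse 1 lowest and mouse 3 highest in each. The highest value exceeded the lowest 3.94 times among controls and 4.35 times among knockouts. Hspa1a followed the same order, with 86.0, 239 and 407 in the controls against 159, 205 and 620.3 in the knockouts, a spread of 4.73 times and 3.9 times. Among the other 66 members at or above the median intensity, the spread within a group had a median of 1.15 times among controls and 1.14 times among knockouts, and reached at most 1.8 and 1.77.

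The log2 changes of these genes were 0.55 ± 0.67 for Hspa1b (95% interval from -1.07 to 2.17, adjusted p = 0.789) and 0.39 ± 0.66 for Hspa1a (interval from -1.20 to 1.98, adjusted p = 0.863). Their sign depended on single mice: without knockout mouse 3 the changes were -0.07 for Hspa1b and -0.18 for Hspa1a. Without control mouse 1, that of Hspa1a was -0.17 and that of Hspa1b 0.05, and without control mouse 3 they were 0.85 and 1.01. The other 2 probe sets of Hspa1b had the same order of mice and changes of 0.53 and 0.46. The 2 genes encode nearly the same protein and lie near each other, so a probe may read both. Ppbp, a platelet chemokine on the megakaryocyte list, had the same order of mice, 75.3, 165 and 229.9 in the controls against 79.0, 109 and 653 in the knockouts; it is named after its values were seen, and its part was not tested. Of that list, Gp9 read 205, 168 and 222 against 209, 202 and 276, and Pf4 1209, 1339 and 1434 against 1155, 1011 and 1340.4.

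**Figure D3:**
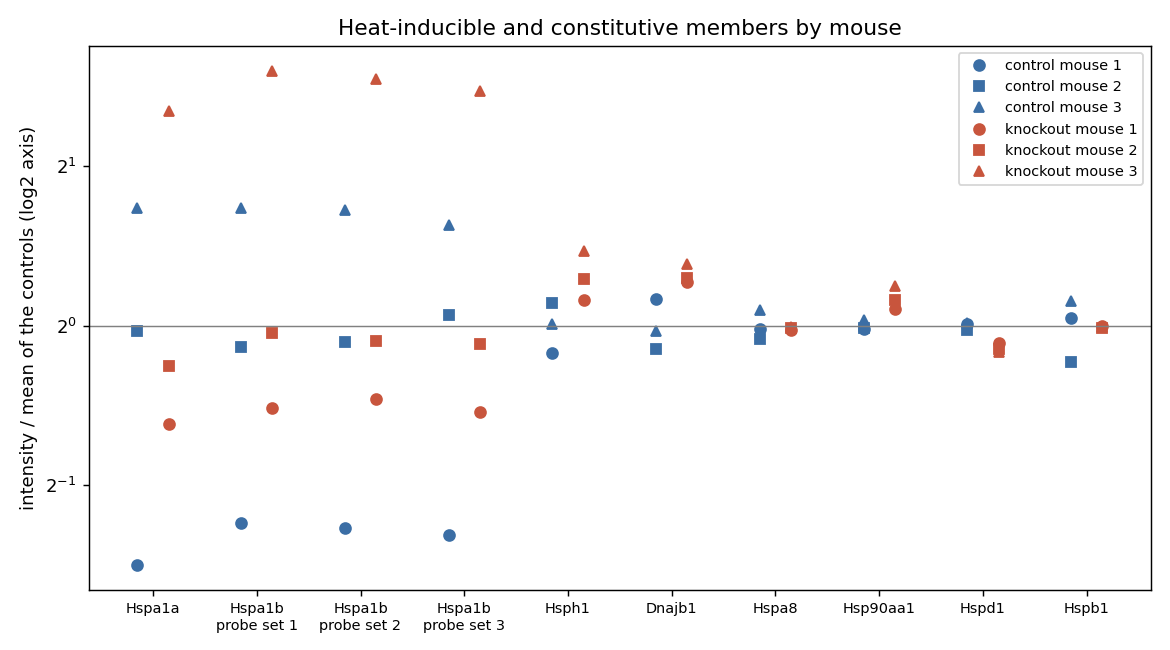
Intensity of 10 probe sets in each mouse, divided by the mean of the 3 controls, on a log2 axis. All 4 probe sets of Hspa1a and Hspa1b spread widely with mouse 3 highest in each group, while Hspa8, Hsp90aa1, Hspd1 and Hspb1 lie close to 1.

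Other heat-inducible genes did not share this spread. Hsph1, the inducible HSP110, which releases clients from HSP70, read 633, 789.7 and 719.9 against 799.6, 874 and 990.1, a log2 change of 0.31 ± 0.13 (adjusted p = 0.417) with the groups apart. Its second probe set had a change of 0.37, there with overlap. Hspa4l, a related HSP110, read 743, 639 and 708 against 799, 845 and 955, a change of 0.31 ± 0.12 (adjusted p = 0.367), and all 4 of its other probe sets were above 0. The third of the family, the constitutive Hspa4, had a change of -0.03 ± 0.10 with a 95% interval from -0.29 to 0.22. Immediate early genes, which respond within minutes to handling and to growth signals, lay on the other side of 0. All 8 were lower in every knockout than in any control, against 9.23% of all genes. Their median log2 change was -0.43, with sums of 33064 to 34902 in the controls against 23233 to 27305 in the knockouts. Of these 8, none passed the limma test. Lower at an unadjusted p threshold of 0.05 were 7, against 4.53% of all genes. With the intensity trend 7 passed, against 0.605% of all genes lower. Their part in the heat shock values was not tested.

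Hspa8, the constitutive HSP70 of the cytosol, was the brightest HSP70 probe set and barely differed: 14473, 13844 and 15671 in the controls against 14398, 14483 and 14590.3 in the knockouts. Its log2 change was -0.02 ± 0.10, with a 95% interval from -0.25 to 0.22, and its other 3 probe sets lay between -0.18 and -0.02. Hsp90aa1, the inducible cytosolic HSP90, read 10888, 10918 and 11309 against 11870.4, 12331 and 13143. Its knockouts were all above its controls by a narrow margin, with a log2 change of 0.17 ± 0.10 (adjusted p = 0.518), and in its other 4 probe sets, with changes from 0.0046 to 0.14, the groups overlapped. After quantile normalization its change was 0.05 (adjusted p = 0.871, 0.148 to 0.871 over the alternatives), and with the mean of all 5 probe sets 0.10. Hspb1, the small heat shock protein HSP27 that binds unfolding chains without ATP, read 245, 202 and 263 against 236, 235 and 235, with a 95% interval from -0.29 to 0.29. Hspb6 alone of the 8 small heat shock proteins had its groups apart, at 231, 223 and 259.9 against 307, 291 and 279, a change of 0.28 ± 0.10 (adjusted p = 0.360). Of the other HSP70 genes, Hspa14, which works at the ribosome, had a change of 0.16 with the groups apart, and Hspa2, best known from the testis, one of -0.27 with overlapping groups. The change of Hspa2 was -0.06 without knockout mouse 3, -0.17 without control mouse 2 and -0.42 without knockout mouse 2.

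The start regions of 5 members are given as a description. Dnajb4 was picked for the size of its change and Hspa1b for its spread between mice. Hsph1 and Hspe1 were picked as carriers of a full heat shock element, and Hspa5 for the ER set described further on. Whether these sequences have a part in the changes or in the spread was not tested. The heat shock factor HSF1 binds inverted repeats of the unit GAA, and the sensors of ER stress act through the ER stress element. Each sequence is the RefSeq window (GRCm38.p6) from 250 bases before to 50 bases after an annotated start, printed 5′ to 3′ on the gene's strand, with matches to the motifs in capitals. Dnajb4 is chr3:152193796-152194095 on the minus strand, 1 of its 2 windows and the only one with a match. Hspa1b is chr17:34959189-34959488 (minus), Hsph1 chr5:149636287-149636586 (minus), Hspe1 chr1:55087898-55088197 (plus) and Hspa5 chr2:34771840-34772139 (plus).
Dnajb4: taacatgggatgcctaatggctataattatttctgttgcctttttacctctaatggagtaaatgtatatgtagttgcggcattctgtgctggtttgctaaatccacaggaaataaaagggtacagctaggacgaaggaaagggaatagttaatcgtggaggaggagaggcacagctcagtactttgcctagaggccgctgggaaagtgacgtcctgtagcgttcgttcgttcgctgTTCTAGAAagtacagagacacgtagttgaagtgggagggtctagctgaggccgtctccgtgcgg
Hspa1b: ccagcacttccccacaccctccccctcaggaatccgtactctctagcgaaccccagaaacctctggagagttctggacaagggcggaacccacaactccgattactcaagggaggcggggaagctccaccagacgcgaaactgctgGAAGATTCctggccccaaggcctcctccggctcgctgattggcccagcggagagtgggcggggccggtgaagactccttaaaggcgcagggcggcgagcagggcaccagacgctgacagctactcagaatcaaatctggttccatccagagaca
Hsph1: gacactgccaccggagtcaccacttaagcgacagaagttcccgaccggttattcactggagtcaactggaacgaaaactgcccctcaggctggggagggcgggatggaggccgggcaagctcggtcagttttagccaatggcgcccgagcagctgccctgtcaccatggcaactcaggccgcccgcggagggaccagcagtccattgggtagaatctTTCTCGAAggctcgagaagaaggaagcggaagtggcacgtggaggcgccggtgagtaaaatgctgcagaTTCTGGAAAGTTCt
Hspe1: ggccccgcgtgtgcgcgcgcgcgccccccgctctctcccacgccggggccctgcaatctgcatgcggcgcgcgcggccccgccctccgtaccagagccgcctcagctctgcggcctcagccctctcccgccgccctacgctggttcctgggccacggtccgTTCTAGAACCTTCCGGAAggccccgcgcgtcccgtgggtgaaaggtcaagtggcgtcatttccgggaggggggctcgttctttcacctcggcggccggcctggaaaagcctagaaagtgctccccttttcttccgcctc
Hspa5: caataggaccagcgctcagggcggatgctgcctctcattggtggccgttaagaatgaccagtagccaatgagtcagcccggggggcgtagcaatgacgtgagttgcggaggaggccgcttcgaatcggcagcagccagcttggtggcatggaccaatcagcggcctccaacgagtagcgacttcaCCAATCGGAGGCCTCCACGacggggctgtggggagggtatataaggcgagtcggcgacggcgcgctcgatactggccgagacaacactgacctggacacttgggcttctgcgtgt

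Windows were found for 66 of the 80 members, 85 windows in all, and both strands were searched. A heat shock element of 3 units (GAA, TTC and GAA in that order, with 2 bases between neighbours) was in 0.603% of all 32851 windows and in 6 of the 85, those of Dnajb6, Hspd1, Hspe1 and Hsph1. Hspd1 and Hspe1 are transcribed away from each other and share this stretch. The shorter TTCNNGAA was in 8.52% of all windows and in 10 of the 85, and GAANNTTC in 7.86% and 18. Both short forms lie inside the longer one. The ER stress element (CCAAT and CCACG on one strand with 9 bases between) was in 0.119% of all windows and in those of Hspa5, Hsp90b1 and Dnajc3. The 4 genes with an exact match to the heat shock element of 3 units lay on both sides of 0. Hsph1 and Dnajb6 had changes of 0.31 and 0.25, Hspd1 and Hspe1 of -0.14 and -0.16. The windows of Hspa1a and Hspa1b were 98.7% identical (296 of 300 aligned bases). A match is a description of letters and does not show binding. Only exact matches were counted, so a window without a match may still hold an imperfect element.

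In the ER the J proteins lay on both sides of 0 while the main chaperones differed little. Hspa5, or BiP, the HSP70 of the ER, read 8211, 7091 and 7121 against 7351, 7909 and 7855, a difference of 0.05 ± 0.11 on the log2 scale (95% interval from -0.21 to 0.30). Hsp90b1, or GRP94, its HSP90 partner, read 7238, 8189 and 7786 against 6984, 7510.2 and 7067, a change of -0.11 ± 0.10. Dnajb9, or ERdj4, a J protein strongly induced by ER stress, had the lowest change of all members at -0.40 ± 0.13 (adjusted p = 0.317, 0.0598 with the trend and 0.0598 to 0.526 over the alternatives). It read 1002, 1098 and 847 in the controls against 794, 738 and 684 in the knockouts, every knockout below every control.

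Of the 11 members placed in the ER from general knowledge, 5 were above 0 and 6 below. Dnajc1 and Dnajc3 had changes of -0.18 ± 0.10 and -0.17 ± 0.11 with overlapping groups; Dnajc3, or P58IPK, restrains an ER stress kinase, and its other 4 probe sets lay between -0.02 and 0.06. Dnajb11, or ERdj3, a partner of BiP, was almost level at -0.00046 (95% interval from -0.25 to 0.25). Among 14 other genes of ER folding and stress, none passed the test, 10 were below 0 and the median was -0.10. In 7 of these 14 the groups were apart with knockouts lower, against 9.23% of all genes. They were Herpud1 (-0.30), Creld2 (-0.26), Sdf2l1 (-0.24), Pdia3 (-0.22), Pdia6 (-0.20), Manf (-0.17) and P4hb (-0.15). Ddit3, the stress factor CHOP, was above 0 with the groups apart, at 575, 576 and 564 against 612, 751 and 742, a change of 0.28 ± 0.11 (adjusted p = 0.394). Values of the neutrophil, pre-B and basophil lists, given above, were also lower in the knockouts in sum, except that the basophil and mast cell sums overlapped, and their part in the ER differences was not tested.

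**Figure D4:**
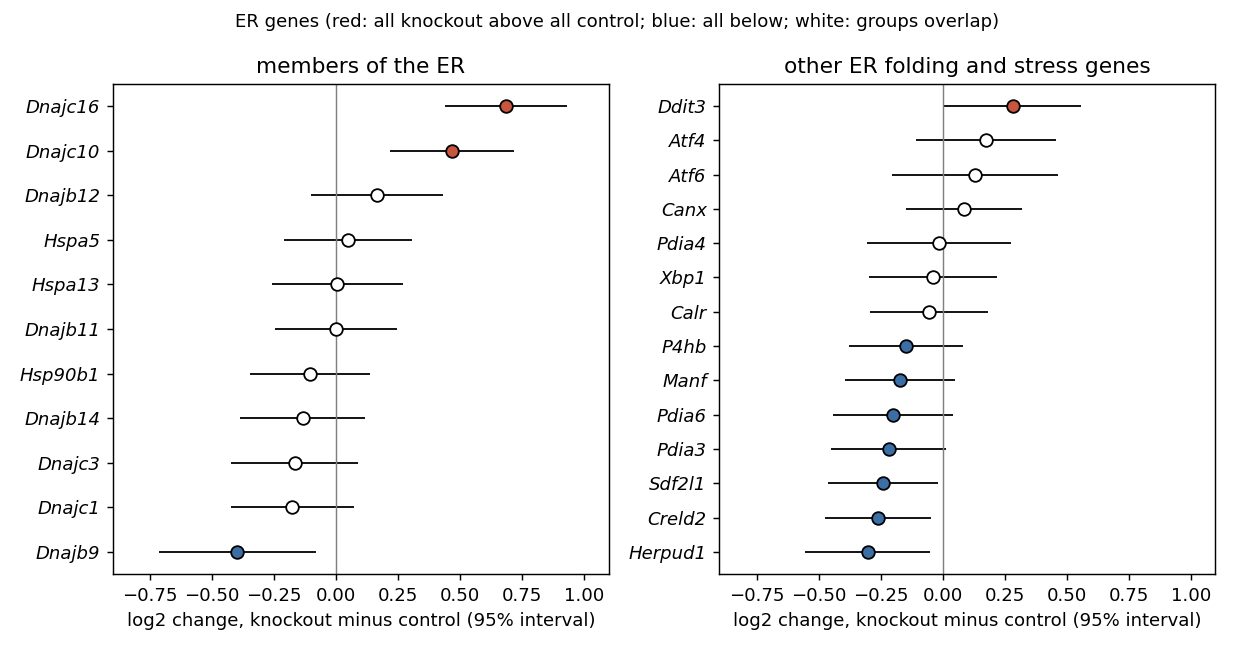
Log2 change (knockout minus control) with its 95% interval for the 11 members of the ER and for 14 other ER folding and stress genes, coloured where all knockout values lie above (red) or below (blue) all control values. Dnajc16 and Dnajc10 lie at the upper end and Dnajb9 at the lower end of the members, and 7 of the 14 other genes are blue.

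Most of the members picked as mitochondrial lay below 0, and none passed. Hspd1, or HSP60, the barrel of the mitochondrial chaperonin, read 4171, 4058 and 4180.2 in the controls against 3840.1, 3729 and 3687 in the knockouts, the groups apart with knockouts lower. Its log2 change was -0.14 ± 0.09, with a 95% interval from -0.36 to 0.08 (adjusted p = 0.573). Hspe1, or HSP10, its lid, read 1827, 2163 and 2011 against 1923, 1874 and 1586, a change of -0.16 ± 0.12 with overlapping groups. Hspa9, or mortalin, the mitochondrial HSP70 that pulls proteins through the inner membrane and helps build iron-sulfur clusters, read 735, 975 and 879.6 against 862, 764 and 681, a change of -0.16 ± 0.15. Of 7 mitochondrial members, picked from general knowledge, 5 were below 0, with a median of -0.14. They were Hspa9, Hspd1, Hspe1, Dnaja3, Dnajc11, Dnajc15 and Dnajc30, and the list may be incomplete. Dnajc28 (0.41, knockouts all higher) and Dnajc4 (-0.09, groups overlapping) were not on it. Of all genes 49.8% were above 0, with a median of -0.0012. The groups were apart in only 1 of the 7, Hspd1. Of 6 other genes of mitochondrial protein quality, none passed, 3 were above 0 and 3 below; Clpp (-0.26) and Lonp1 (-0.16), both proteases of the matrix, were lower in every knockout, and Htra2, a protease of the intermembrane space, was higher in every knockout with a change of 0.47 (adjusted p = 0.304, and 0.0412 with the trend).

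The 8 core subunits of TRiC, the cytosolic chaperonin that folds actin, tubulin and many other proteins, had small differences in both directions. Their changes ran from -0.05 (Tcp1) to 0.27 (Cct7), 4 above 0 and 4 below. Cct5 lay nearest to 0, at 3821, 3786 and 3775 in the controls against 3729, 3816 and 3682 in the knockouts, with a 95% interval from -0.23 to 0.19. Cct3 had an interval from -0.26 to 0.18, Cct4 one from -0.16 to 0.29, Cct6a one from -0.30 to 0.20 and Cct2 one from -0.16 to 0.34. Cct8 had a change of 0.14 ± 0.12, with its second probe set, dim at 6.72 to 22.2, at -0.24. After quantile normalization Cct2 and Cct4 were also below 0, at -0.02 and -0.06. Tcp1, Cct3, Cct5 and Cct6a were then between -0.16 and -0.14, and only Cct7 and Cct8 were above 0. Outside the core, the TRiC relative Cct8l1 had a change of -0.22 ± 0.21 with overlapping groups, and leaving out 1 mouse moved it between -0.40 (without knockout mouse 2) and -0.07 (without control mouse 3).

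Cct7 had the largest change of the 8 subunits. It read 3665, 3164 and 3588 against 4390.3, 4158 and 4025, with the groups apart and a log2 change of 0.27 ± 0.11 (adjusted p = 0.378), and its second probe set, at 2375, 2165 and 2432 against 2912, 2804 and 2719, had a change of 0.27. After quantile normalization the change of Cct7 was 0.16 (adjusted p = 0.552, 0.0714 to 0.563 over the alternatives). Whether Cct7 differs from the other subunits was not tested. Of 9 partners of TRiC, prefoldin subunits and related cofactors, none passed, 5 were above 0 and 4 below. Vbp1, a prefoldin subunit, stood out at 5012, 4619 and 4854 against 7019, 7379 and 7148, a change of 0.57 ± 0.09 (adjusted p = 0.112, and 0.00016 with the trend), while the prefoldins Pfdn1, Pfdn2, Pfdn4, Pfdn5 and Pfdn6 had changes between -0.05 and 0.17.

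**Figure D5:**
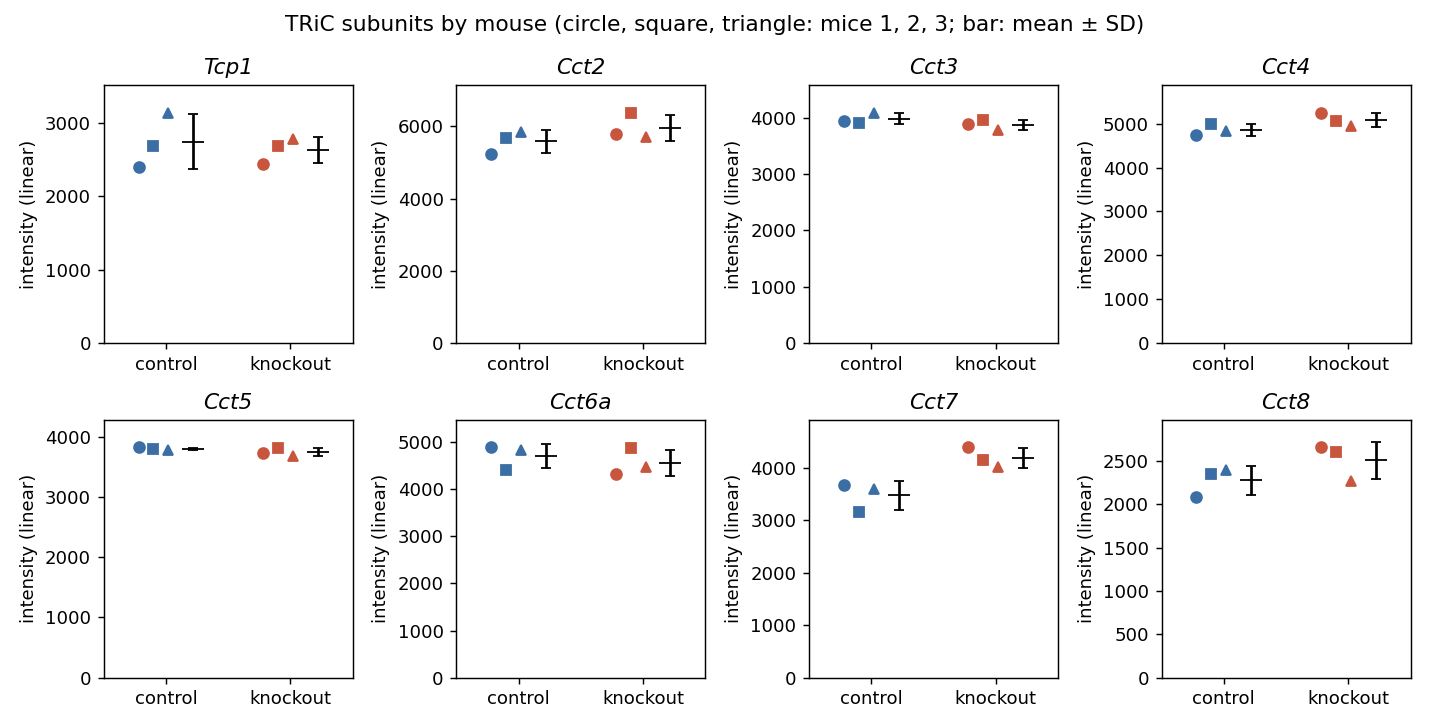
Linear intensity of the 8 core TRiC subunits in each mouse, with control in blue, knockout in red and the mean ± SD beside each group. The groups overlap in every subunit but Cct7, whose knockouts lie between 4025 and 4390 and its controls between 3164 and 3665.

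The regulators and cochaperones of these families gave no call in the limma test either. At an unadjusted p threshold of 0.05, 1 HSP70 cochaperone and 1 TRiC partner were higher, and 0 HSP90 cochaperones or heat shock factor genes were on either side. At that threshold 1 of the 14 ER genes was higher and 3 lower, and 1 of the 6 mitochondrial genes was higher and 1 lower. Of all genes, 8.18% were higher and 4.53% lower at that threshold. Of 4 measured genes of heat shock factor control, none passed, and 2 were above 0 and 2 below. The factors Hsf2, Hsf4 and Hsf5 were dim, between 3.90 and 45.0. Hsf1, also on that list, was not analysed here. Of 15 cochaperones of HSP70, none passed, 7 were above 0 and 8 below. Bag1, an exchange factor of HSP70, was higher in every knockout, at 2837, 2714 and 2996 against 4075, 3583 and 3785, a log2 change of 0.42 ± 0.10 (adjusted p = 0.221, and 0.00613 with the trend). Bag3, the heat-inducible member of that family, had a change of 0.20 and overlapping groups. Of 11 genes on the list drawn up for cochaperones of HSP90, none passed, 7 were above 0 and 4 below. Their changes ran from -0.20 for Fkbp4 to 0.21 for Fkbp8. The list includes Tsc22d4 (0.03), whose role as a cochaperone was not checked. Stip1, which passes clients from HSP70 to HSP90, had a change of -0.02, and Ahsa1, an activator of HSP90, one of 0.15.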

How the data were processed

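The authors deposited 1 table of probe set intensity values on a linear scale, 1 column per array. Per the labels' protocols, Trizol RNA was labelled with biotin as cRNA for Affymetrix arrays. The sources used here name no method of summarisation, background correction or scaling. Array medians differed by at most 0.06 on the log2 scale, and no further normalization was applied. Medians do not show that bright probe sets are on one scale. After quantile normalization the bright Cct5 was at -0.14 against -0.02 and Hspd1 at -0.26 against -0.14, while the dimmer Dnajc16 was at 0.70 against 0.68. Genes were named from the platform annotation (34945 probe sets with 1 symbol, 932 with several, 9160 with none), and all 80 members matched RefSeq by Entrez ID. Knockout was set against control on log2(intensity + 16) by limma's moderated, two-sided test (limma 3.58.1, R 4.3.3), and the p-values of all 45037 probe sets were adjusted by Benjamini and Hochberg's method; the fit was tested on simulated data. Groups of 3 cannot give an exact permutation p below 0.1, and the number of arrays limits the precision. The labels name separate mice.

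Genes were to be named if they passed, were among the 8 largest changes in either direction at or above the median intensity, or define a family; Dnajb3, Dnajb8, Hspa4l, Hspa14, Hspb6 and some others outside it were named after their values were seen. The members and lists were chosen with earlier results of these data known. The 14 alternatives were a pseudocount of 1 or of 64, quantile normalization, centring on the array medians, robust moderation along an intensity trend, only the brighter 50% of probe sets, the mean of all probe sets, the replicate number as a block and leaving out each mouse.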

Additional observations from a re-analysis of the deposited data

How the results depend on the processing

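Members past the threshold numbered 0 in either direction, and 0 again under every alternative but 3: 3 were higher with a pseudocount of 64, 3 among the brighter 50% of probe sets (68 members tested) and 5 with the intensity trend and robust moderation. Each of the 3 also called a larger share of all genes. Members whose groups did not overlap, knockouts lower, numbered 12 after quantile normalization (12.6% of all genes) and 3 when probe sets were averaged (9.6% of all genes), against 5, and the median log2 change was -0.0198 after quantile normalization against 0.0164; the cause was not tested. Leaving out 1 mouse gave 8 to 14 such members (13.6% to 16% of all genes), as fewer values make overlap rarer, 19 to 22 with knockouts higher (16% to 17.7% of all genes), and medians from 0.0104 (without control mouse 2) to 0.0562 (without control mouse 3), with 0.0421 without knockout mouse 1. Of the 39 named members, 23 kept their sign under all 14 alternatives; the others, Hspa1a and Hspa1b apart, had changes within 0.25 of 0. With the replicate number as a block, 0 members passed. Deviations from the group means of mice 1, 2 and 3 correlated with those of the same number at r = -0.06, 0.0029 and -0.07 over the brighter 50% of probe sets. Over the members among these r was 0.67, -0.18 and 0.75, and without Hspa1a and Hspa1b 0.03, -0.08 and -0.06, so the numbers were not taken as pairs. Levels of the 12 dim members are limited by background.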
